A study of Mus musculus with 15 samples.

Results

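Immediate early genes and the stress response genes usually counted with them were followed in GFP-sorted cells of the mouse pancreas at 3 ages. The set was a list of 43 genes with no threshold on their values. A gene was taken when a probe set of the array names it and no other gene. This held for 42 of the 43, out of 19938 genes with such a probe set, and all 42 lay above the filter on dim genes that left 16883 genes for testing. The heat shock gene Hspa1b was the exception, because its probe set is annotated to Hspa1a as well.

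The arrays fell into 5 groups with n = 3 arrays each, 15 in all. Cells of high GFP signal were sorted from pancreata of Sox9-EGFP mice at the embryonic stages e10.5 and e15.5 and the postnatal stage p23 (days of age), where Sox9 is a transcription factor of pancreatic progenitors and ducts. GFP+ cells were also sorted from Ngn3-EGFP pancreata at e15.5, where Ngn3 (gene Neurog3) marks cells entering the endocrine lineage, and GFP- cells were kept from the Sox9-EGFP pancreata at p23. The embryos came from transgenic males and wild-type CD1 females, so the controls of each comparison carried an EGFP transgene too. Several animals were pooled for each sort, and p-values therefore measure the spread between such pools, which may be partly technical. The protocols name collagenase B for dissociation and trypsin where it was needed, without saying which groups received trypsin, and name no gate against leukocytes or dead cells.

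Immediate early genes are transcribed within minutes of a stimulus from transcription factors that already sit in the cell. Growth factor signals reach serum response factor through the ERK kinases, and calcium or cAMP signals reach CREB, and both factors act on short DNA elements close to the start of these genes. Their products are mostly transcription factors (FOS and JUN proteins, EGR and NR4A factors, KLF factors) and feedback inhibitors that end the signal, such as DUSP1 and ZFP36. The inducible heat shock genes are switched on by a different factor, HSF1, when proteins misfold. Both programmes are known to respond to tissue dissociation as well as to physiological stimuli.

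The stretches of 250 bases before the transcription start are shown for 4 immediate early genes that rose at each step from e10.5 to p23 and for the pair of near-identical inducible Hsp70 genes. They come from the RefSeq promoter table of build GRCm38.p6, which held 35 of the 43 listed genes, and are written 5′ to 3′ on the gene's strand. In Fos and Nr4a1 capitals mark the core of the cAMP response element, TGACG on either strand. In Egr2 and Zfp36 they mark the CArG box, the element bound by serum response factor, and in Hspa1a and Hspa1b the core of the heat shock element, GAANNTTC.
Fos, chr12:85473640-85473889, plus strand: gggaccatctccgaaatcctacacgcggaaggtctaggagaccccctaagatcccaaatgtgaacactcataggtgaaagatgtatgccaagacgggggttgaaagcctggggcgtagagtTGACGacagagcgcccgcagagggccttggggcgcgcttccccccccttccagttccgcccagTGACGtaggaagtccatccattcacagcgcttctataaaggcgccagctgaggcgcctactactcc
Nr4a1, chr15:101266596-101266845, plus strand: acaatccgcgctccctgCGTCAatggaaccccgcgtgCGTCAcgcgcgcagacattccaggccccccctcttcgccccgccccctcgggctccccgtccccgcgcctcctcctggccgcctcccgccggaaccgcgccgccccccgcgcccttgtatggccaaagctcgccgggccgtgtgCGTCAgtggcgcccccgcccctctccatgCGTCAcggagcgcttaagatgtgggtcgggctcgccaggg
Egr2, chr10:67537316-67537565, plus strand, 1 of its 5 annotated starts: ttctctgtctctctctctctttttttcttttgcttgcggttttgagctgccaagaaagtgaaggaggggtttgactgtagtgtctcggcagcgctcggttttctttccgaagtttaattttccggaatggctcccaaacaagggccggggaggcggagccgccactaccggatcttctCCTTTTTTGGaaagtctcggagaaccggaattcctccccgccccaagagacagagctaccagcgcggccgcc
Zfp36, chr7:28379229-28379478, minus strand: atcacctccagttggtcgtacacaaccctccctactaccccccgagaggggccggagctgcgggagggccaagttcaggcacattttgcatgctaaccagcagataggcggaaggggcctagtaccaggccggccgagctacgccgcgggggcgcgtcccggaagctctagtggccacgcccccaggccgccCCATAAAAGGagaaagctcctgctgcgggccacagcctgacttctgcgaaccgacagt
Hspa1a, chr17:34972157-34972406, minus strand: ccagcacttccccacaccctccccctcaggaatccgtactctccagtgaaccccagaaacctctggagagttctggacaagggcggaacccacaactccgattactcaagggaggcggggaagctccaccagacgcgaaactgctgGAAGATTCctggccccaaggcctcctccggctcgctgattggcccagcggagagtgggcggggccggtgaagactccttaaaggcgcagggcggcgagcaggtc
Hspa1b, chr17:34959239-34959488, minus strand: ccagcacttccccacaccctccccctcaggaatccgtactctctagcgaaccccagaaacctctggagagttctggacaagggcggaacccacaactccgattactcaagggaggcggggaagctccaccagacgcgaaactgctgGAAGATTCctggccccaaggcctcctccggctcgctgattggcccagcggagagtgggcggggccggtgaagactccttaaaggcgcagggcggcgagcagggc
Nr4a1 held 4 such cores and Fos held 2, while the Hspa1a and Hspa1b stretches differed at 3 of 250 bases and carried the heat shock core at the same distance from the start.

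Searched on both strands of the windows from 250 bases before to 50 after a start, the core TGACG was found in 54.3% of the 35 listed genes and in 23% of all 27025 genes. The full palindromic cAMP response element, which contains that core, was found in Btg2, Maff and Dusp1, or 8.57% against 2.03%. An EGR site, GCGNGGGCG, was present in 34.3% against 6.27%, and an NF-kB site in 31.4% against 9.55%. The CArG box was present in 5.71% against 1.81%, and Zfp36 and Egr2 were the genes of the 35 with it in these windows. Egr1, Egr3, Ier2, Fosl1, Klf10, Myc, Hspa8 and Hsp90aa1 had no window. Elements more than 250 bases before a start were not searched, so a gene without a match here may still have one. An AP-1 site, TGANTCA, was found in 0 of the 35, against 8.97% of all genes. The core GAANNTTC was found in 17.1% against 9.04%, and its longer form of 3 units, which contains it, in Hsph1 alone, or 2.86% against 0.662%. These shares describe letters in a window and say nothing of a factor's binding.

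The libraries bear on these genes in a few ways. Values are given as log2 of the deposited intensity plus 16, and a change is a difference of such values, which understates the change of dim genes. The filter lay at 6.83 on this scale. Sox9 ran from 11.62 to 12.14 in the 9 Sox9-GFP+ arrays and from 8.68 to 10.08 in GFP- cells, while Neurog3 ran at e15.5 from 11.53 to 12.21 with the Ngn3 sort and from 11.66 to 12.12 with the Sox9 sort. Leukocyte markers, 24 of 25 with a probe set, summed to an intensity of 83962 to 127372 in GFP- cells at p23, 6342 to 9578 in Sox9-GFP+ cells at p23 and 2743 to 2775 in the e15.5 Sox9-GFP+ arrays. Endocrine markers, 12 of 14, summed to 36164 to 52207 in those e15.5 arrays and to 4203 to 8629 and 4816 to 8391 in the p23 GFP+ and GFP- cells, so neither p23 sort was rich in endocrine cells. The embryonic globin gene Hbb-y stood at 10.48 and 11.20 in 2 of the e10.5 arrays and at 9.98 in 1 of the e15.5 Sox9-GFP+ arrays. In such sorted pools a smaller number of expressing cells and less RNA per cell cannot be told apart.

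Immediate early genes rose in Sox9-GFP+ cells from e10.5 to e15.5 and again from e15.5 to p23. Over the first interval 22 of 42 rose and 0 fell, with a median change of 0.64, while 28.2% of all tested genes were called and 12.2% were called higher, and their median change was -0.05. Over the second interval 33 rose and 1 fell, with a median change of 1.32, against 30.7% and 26.8% of all genes and a median of 0.05. From e10.5 to p23 the counts were 32 and 0, with a median change of 2.56, against 17.7% and 23.3%. A call is an adjusted p at or below 0.05 in limma with Benjamini-Hochberg adjustment over all 16883 genes. Gadd45a rose and then fell, Gadd45g was called at the first step alone, and Egr4, Nr4a2, Klf2, Myc, Hspa8, Hsp90aa1 and Hsph1 were called at neither. The intervals share the e15.5 arrays, and age and any difference in handling between ages cannot be told apart.

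Markers of other cell types moved over the same intervals. Acinar markers had a probe set for 9 of 12. They summed to 1390 to 2270 in the e10.5 arrays, 19468 to 28337 at e15.5 and 63045 to 72853 at p23. Of the 9, 8 were called higher and 0 lower at the first step, and 4 higher and 3 lower at the second. Endothelial markers, 20 of 20, summed to 2601 to 2810, then 2386 to 2583, then 5045 to 5930. Of these, 1 was called higher and 5 lower at the first step, and 17 higher and 1 lower at the second. Of all tested genes 28.2% were called and 12.2% were called higher at the first step, and 30.7% were called higher and 26.8% lower at the second. Ductal markers, 10 of 12, summed to 9164 to 11790, then 16308 to 19284, then 27768 to 31707. The part of these cells in the members' rises was not tested. Without the 3 arrays with Hbb-y above 9, which leaves 1 e10.5 array that is assumed to vary like the others, the first rises of Fosl2, Klf10, Gadd45a and Sgk1 lost their calls, and the other 18 of 22 held. In the same setting the second rises of Atf3 and Egr3 and the fall of Gadd45a lost theirs. Without the 2 p23 Sox9-GFP+ arrays with leukocyte signal, which leaves 1 array, the second rises of Fosb, Jund, Atf3, Ier2 and Btg1 and the fall of Gadd45a lost theirs.

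Some baselines give only a bound. All e10.5 arrays lay below the filter for Junb, Atf3, Nr4a1, Gadd45b, Sgk1 and Hspa1a, as did all e15.5 Sox9-GFP+ arrays for Hspa1a and all Ngn3-GFP+ arrays for Egr2. For these, a fold is a lower bound with the dim group set to the filter's level, and the fitted difference given below is no measure of its size. From e10.5 to p23 the rise was at least 13.4-fold for Junb, at least 14.8-fold for Nr4a1, at least 20.4-fold for Gadd45b and at least 6.15-fold for Sgk1. The members' medians above were the same with these genes at their bounds.

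**Figure D1:**
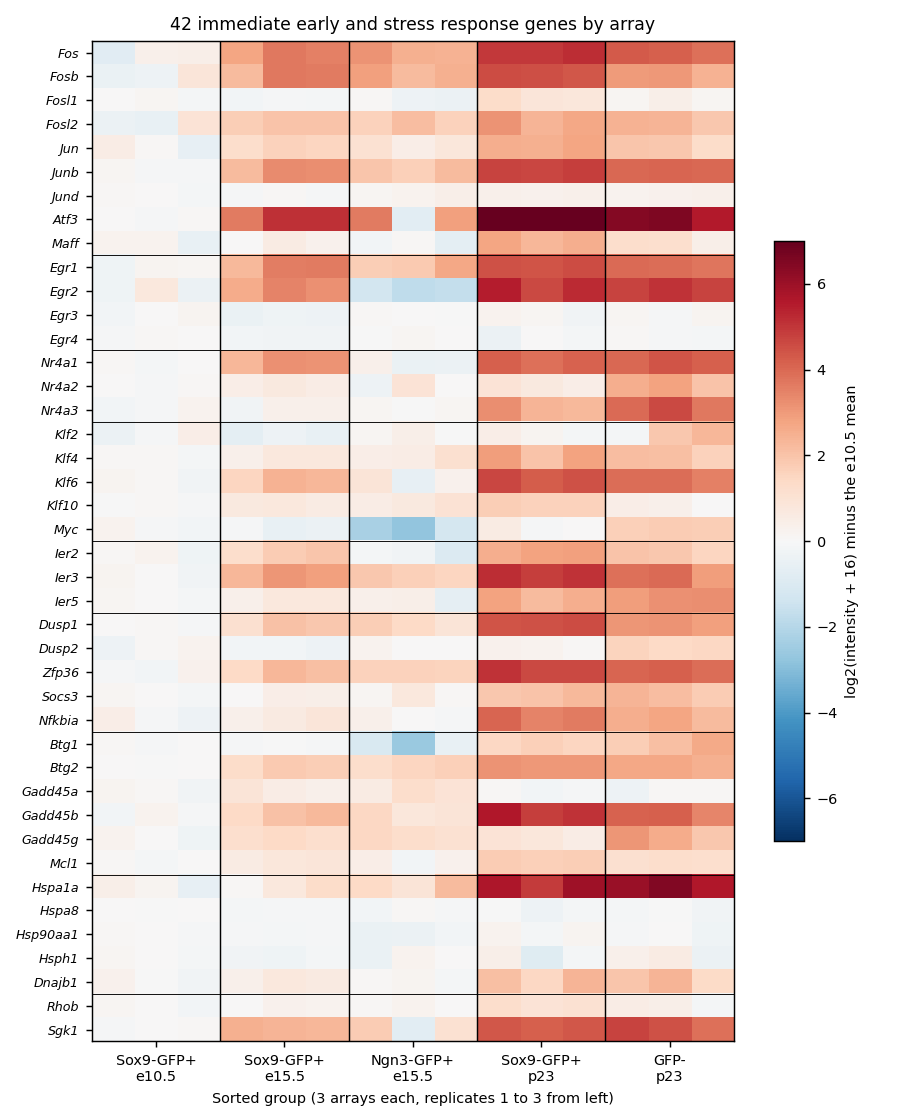
Each cell gives the log2(intensity + 16) of 1 gene (rows, grouped by role) in 1 array (columns, 3 per group) minus the gene's mean at e10.5. Red deepens from e10.5 to e15.5 to p23 in most rows, whereas the rows of Jund, Egr4, Hspa8 and Hsp90aa1 stay pale.

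The level of the whole set per array shows the same order. The median over the 42 genes was 7.99, 8.01 and 8.16 in the e10.5 arrays, 9.50, 10 and 9.87 in the e15.5 Sox9-GFP+ arrays and 11.36, 11.18 and 11.23 at p23. It was 8.80, 8.67 and 8.46 in Ngn3-GFP+ cells and 10.89, 11.14 and 10.74 in GFP- cells at p23. None of these 5 ranges overlapped. Within a group the genes did not scatter independently: e15.5 Sox9-GFP+ replicate 1 was the lowest of its group for 33 of 42 genes, p23 Sox9-GFP+ replicate 1 the highest for 31, and GFP- replicate 3 the lowest for 30. The Hbb-y signal of 9.98 was in the same e15.5 array, and its part in the result was not tested.

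Of the AP-1 subunits and their relatives, 6 of 9 rose at the first step and 9 of 9 at the second. Fos, the prototype immediate early gene, read 6.66, 7.82 and 7.89 in the e10.5 arrays, 10.22, 11.15 and 10.99 in the e15.5 arrays and 12.41, 12.39 and 12.63 in the p23 arrays. The groups did not overlap, and the changes were 3.33 ± 0.309 (SE, adjusted p = 6.29e-06) and 1.69 ± 0.309 (adjusted p = 0.000575). Atf3, a stress-induced bZIP factor, stood at 5.52, 5.42 and 5.61, then at 9.14, 10.65 and 10.63, then at 13.06, 12.95 and 12.97. All e10.5 values lay below the filter, and the difference between e10.5 and p23 was 7.48 ± 0.786 (adjusted p = 3.12e-06), that is, at least 72.0-fold. Junb, a JUN family subunit, stood at 5.96, 5.75 and 5.72, then at 8.02, 9.11 and 9.08, then at 10.56, 10.47 and 10.67, rising by 2.93 ± 0.228 and 1.83 ± 0.228. Jund, the JUN family member known for steady expression, lay well above the filter throughout, at 11.09, 11.03 and 10.89, then 10.91, 11.07 and 10.90, then 11.34, 11.32 and 11.33. Its change at the second step, 0.37 ± 0.104 (adjusted p = 0.0083), was the smallest of the 9. Fosb, a FOS relative, rose by 3.17 ± 0.383 and 1.30 ± 0.383, Jun by 1.44 ± 0.25 and 1.17 ± 0.25, and Fosl2 by 1.90 ± 0.321 and 0.85 ± 0.321. The e10.5 arrays of Fosl2 read 6.39, 6.28 and 7.74, and its first change was 1.05 (adjusted p = 0.0556) without the arrays with globin signal. Fosl1 and the small MAF gene Maff rose at the second step, by 1.1 ± 0.158 and 2.25 ± 0.263. Without e15.5 replicate 1 the second change of Fosb was 0.81 (adjusted p = 0.0536) and that of Fosl2 0.77 (adjusted p = 0.0974), neither of them called, and the call of Fosl2 was also lost without other single arrays, the lowest value being 0.66 without p23 replicate 1.

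**Figure D2:**
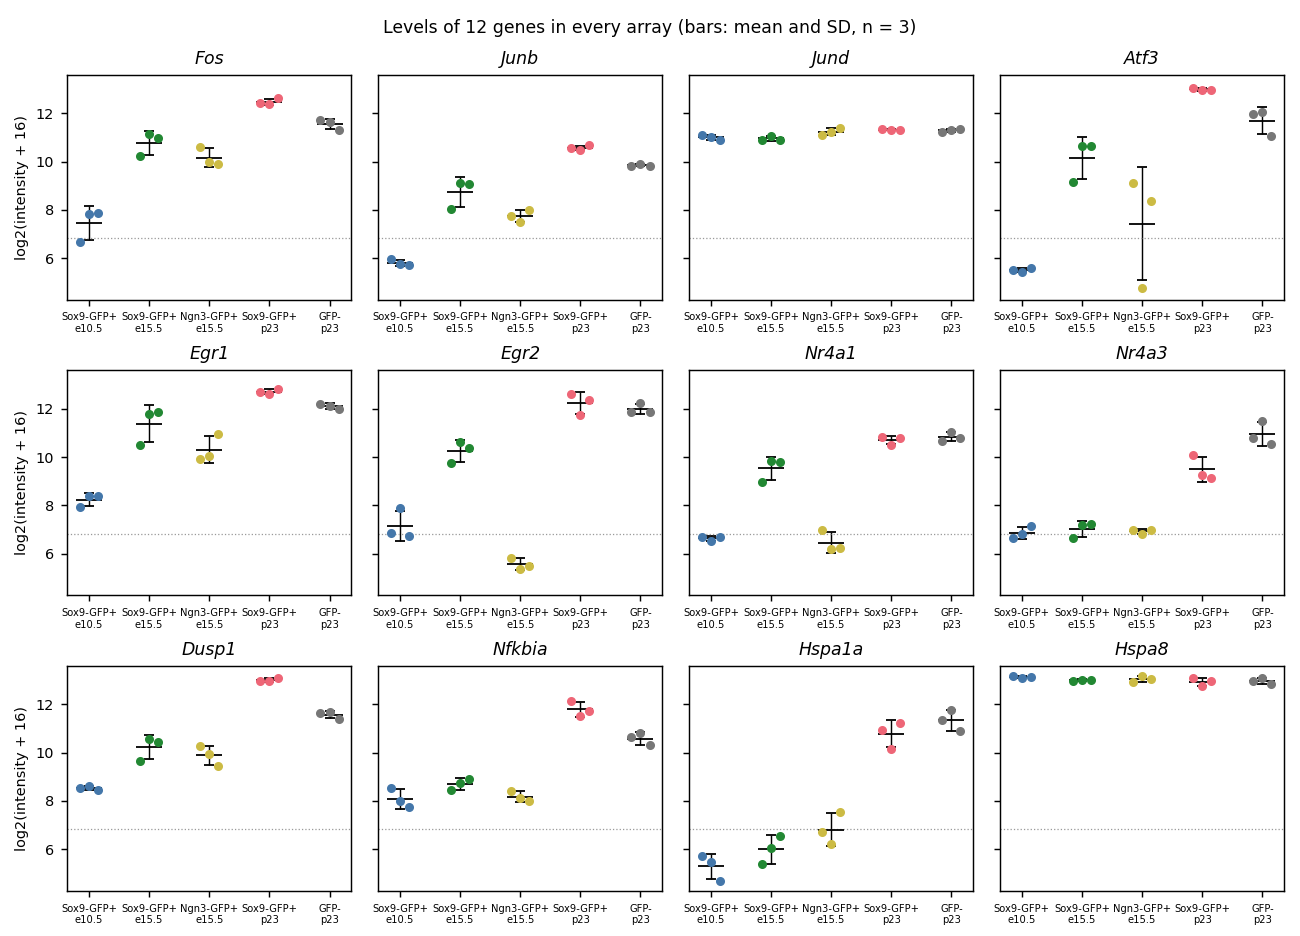
Points are single arrays and bars the mean and SD (n = 3) of log2(intensity + 16) for 12 genes, with the dotted line at the filter of 6.83. Fos, Junb, Atf3, Egr1, Egr2 and Nr4a1 step up from e10.5 to e15.5 to p23, Hspa1a rises at p23, and the points of Hspa8 and Jund span little of the axis.

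The EGR zinc finger factors divided into a pair that moved by several units and a pair that hardly moved. Egr1 read 7.93, 8.40 and 8.38 in the e10.5 arrays, 11.38 ± 0.765 (mean ± SD, n = 3) in the e15.5 arrays, with 11.79 and 11.86 in replicates 2 and 3 and a lower value in replicate 1, and 12.71, 12.61 and 12.81 in the p23 arrays. Egr2, a factor known for hindbrain patterning and Schwann cell myelination, stood at 6.85, 7.88 and 6.72, then at 9.77, 10.64 and 10.37, then at 12.62, 11.76 and 12.36. Both rose at each step, Egr1 by 3.15 ± 0.316 and 1.33 ± 0.316 and Egr2 by 3.11 ± 0.303 and 1.98 ± 0.303, and the second rise of Egr1 was 0.88 without e15.5 replicate 1. Egr3 ranged from 7.56 to 8.25 over the 9 Sox9-GFP+ arrays and rose by 0.42 ± 0.136 at the second step (adjusted p = 0.0175), a call lost when any of several single arrays was left out, with 0.34 (adjusted p = 0.0789) without p23 replicate 1. Egr4 ranged from 6.87 to 7.37, close to the filter, and had no call.

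The NR4A genes, which encode orphan nuclear receptors, each had a course of their own. Nr4a1 read 6.71, 6.53 and 6.69 in the e10.5 arrays, 8.98, 9.85 and 9.79 in the e15.5 arrays and 10.84, 10.52 and 10.79 in the p23 arrays, with rises of 2.90 ± 0.233 and 1.18 ± 0.233. Nr4a3 stood at 6.66, 6.80 and 7.13, then at 6.64, 7.19 and 7.22, then at 10.09, 9.26 and 9.15. Its e10.5 and e15.5 values overlapped and lay around the filter. From there it rose at the second step by 2.48 ± 0.268 (adjusted p = 6.22e-06), a size that the dim baseline makes uncertain. Nr4a2 stood at 8.06, 7.95 and 8.11, then at 8.48, 8.70 and 8.58, then at 9.01, 8.71 and 8.49, and was called at neither step.

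Among the KLF factors and Myc, Klf6 and Klf10 rose at both steps and Klf4 at the second. Klf6, a zinc finger factor induced by injury, stood at 8.39, 8.32 and 7.97, then at 9.73, 10.64 and 10.52, then at 12.88, 12.48 and 12.66, with changes of 2.07 ± 0.305 and 2.37 ± 0.305. Klf10, which is induced by TGF-beta, rose by 0.67 ± 0.136 and 0.97 ± 0.136, and Klf4, an epithelial differentiation factor, by 1.95 ± 0.241 at the second step. Klf2, a factor of endothelial cells and quiescent lymphocytes, and Myc, the growth regulator, had changes of 0.69 ± 0.448 and 0.52 ± 0.285 at the second step and were not called.

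All 3 IER genes rose at the second step and 2 of them at the first. Ier3, a survival gene induced by NF-kB and stress, stood at 7.29, 7.13 and 6.85, then at 9.42, 10.19 and 9.95, then at 12.26, 11.93 and 12.16, with changes of 2.76 ± 0.255 and 2.26 ± 0.255. Ier2 rose by 1.67 ± 0.239 and 1.09 ± 0.239, and Ier5 by 1.91 ± 0.24 at the second step.

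All 5 feedback inhibitors rose at the second step and 3 of them at the first. Dusp1, a phosphatase that switches off MAP kinases, stood at 8.55, 8.62 and 8.44, then at 9.65, 10.57 and 10.44, then at 12.96, 12.99 and 13.09. The p23 arrays lay within 0.2 of each other, and the changes were 1.69 ± 0.222 and 2.79 ± 0.222. Zfp36, which destabilises AU-rich mRNAs such as those of cytokines and of Fos, stood at 8.67, 8.57 and 9.08, then at 10.19, 11.09 and 10.85, then at 13.84, 13.41 and 13.39, with changes of 1.94 ± 0.204 and 2.84 ± 0.204. Nfkbia, the inhibitor that holds NF-kB in the cytoplasm and is itself an NF-kB target, stood at 8.52, 7.98 and 7.73, then at 8.45, 8.73 and 8.92, then at 12.13, 11.53 and 11.74. Its e10.5 and e15.5 values overlapped, and the first rise of 0.62 ± 0.217 (adjusted p = 0.0469) lost its call without single arrays of either age, with 0.45 (adjusted p = 0.207) without e10.5 replicate 3, whereas the second was 3.11 ± 0.217 (adjusted p = 8.8e-08). Socs3, an inhibitor of cytokine receptor signals, rose by 1.74 ± 0.2 at the second step on the probe set used. That probe set had the higher mean intensity over all 15 arrays only through its p23 values. The other Socs3 probe set, left out of the main fit, was the brighter one in every embryonic array and ranged from 7.60 to 8.46 over all 15. It stood at 7.72, 7.60 and 7.65 in the e15.5 Sox9-GFP+ arrays and at 8.35, 8.37 and 8.20 in the p23 ones. Dusp2 rose by 0.46 ± 0.139 at the second step, from values near the filter, and without p23 replicate 1 the value was 0.41 (adjusted p = 0.0508).

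The growth arrest and survival genes were mixed. Gadd45b, a stress-induced regulator of MAP kinase signalling, stood at 5.82, 6.27 and 5.91, then at 7.37, 8.05 and 8.27, then at 11.60, 10.85 and 11.07, with rises of 1.90 ± 0.277 and 3.28 ± 0.277. Its relative Gadd45a stood at 10.56, 10.43 and 10.13, then at 11.28, 10.91 and 10.75, then at 10.43, 10.20 and 10.30. It was the 1 gene of the set that fell at the second step, by 0.67 ± 0.191 (adjusted p = 0.00894), after a rise of 0.61 ± 0.191 (adjusted p = 0.0309) whose call was lost without e15.5 replicate 1 (0.46, adjusted p = 0.112) and without 3 other single arrays. The fall was -0.52 (adjusted p = 0.054) without the arrays with globin signal and -0.56 (adjusted p = 0.126) without those with leukocyte signal. Gadd45g rose by 1.26 ± 0.248 at the first step and had a change of -0.50 ± 0.248 at the second (adjusted p = 0.0944). Btg2, an antiproliferative gene and p53 target, rose by 1.61 ± 0.148 and 1.46 ± 0.148, and Mcl1, a short-lived inhibitor of apoptosis, by 0.75 ± 0.144 and 0.99 ± 0.144. Btg1, an antiproliferative relative of Btg2, rose by 1.59 ± 0.378 at the second step.

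Of the heat shock chaperones, Hspa1a and Dnajb1 rose at p23 and Hspa8, Hsp90aa1 and Hsph1 had no call. Hspa1a, an inducible Hsp70, read 5.70, 5.47 and 4.70 in the e10.5 arrays, 5.38, 6.05 and 6.56 in the e15.5 arrays and 10.96, 10.16 and 11.25 in the p23 arrays. All 6 embryonic values lay below the filter, and the change at the second step, 4.80 ± 0.396 (adjusted p = 4.8e-07), is a rise of at least 15.6-fold. The probe set shared with Hspa1b, which entered no test, stood at 8.23, 8.34 and 8.49, then at 8.02, 8.08 and 8.09, then at 11.31, 10.35 and 11.75. Since 1 probe set is annotated to both genes, the array cannot separate the pair fully, and the Hspa1a values may include Hspa1b. This was not tested, because no transcript or probe sequences were compared. Dnajb1, the Hsp40 partner of Hsp70, rose by 1.42 ± 0.259 at the second step. Hspa8, the constitutive Hsc70, stood between 12.75 and 13.16 in the 9 Sox9-GFP+ arrays, and Hsp90aa1 between 12.64 and 13.05, and neither was called. Both genes have 3 one-gene probe sets, and these values are of the brightest one. Hsph1, an Hsp110 chaperone, had p23 values of 11.76, 10.48 and 11.20 on either side of the e15.5 values of 11.13, 11.06 and 11.22.

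Sgk1, a kinase induced by serum and glucocorticoids, read 5.08, 5.15 and 5.22 in the e10.5 arrays, below the filter, then 7.63, 7.54 and 7.50, then 9.52, 9.34 and 9.49 in the p23 arrays. Its arrays were close within each age, with SDs of 0.0674, 0.0666 and 0.1, and it rose by 2.41 ± 0.438 and 1.89 ± 0.438. These SEs pool all 5 groups and so include the SD of 1.32 among the Ngn3-GFP+ arrays, which are outside both steps. Rhob, a small GTPase of endosomes, was above 10 in every array and rose at the second step, by 0.86 ± 0.159.

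**Figure D3:**
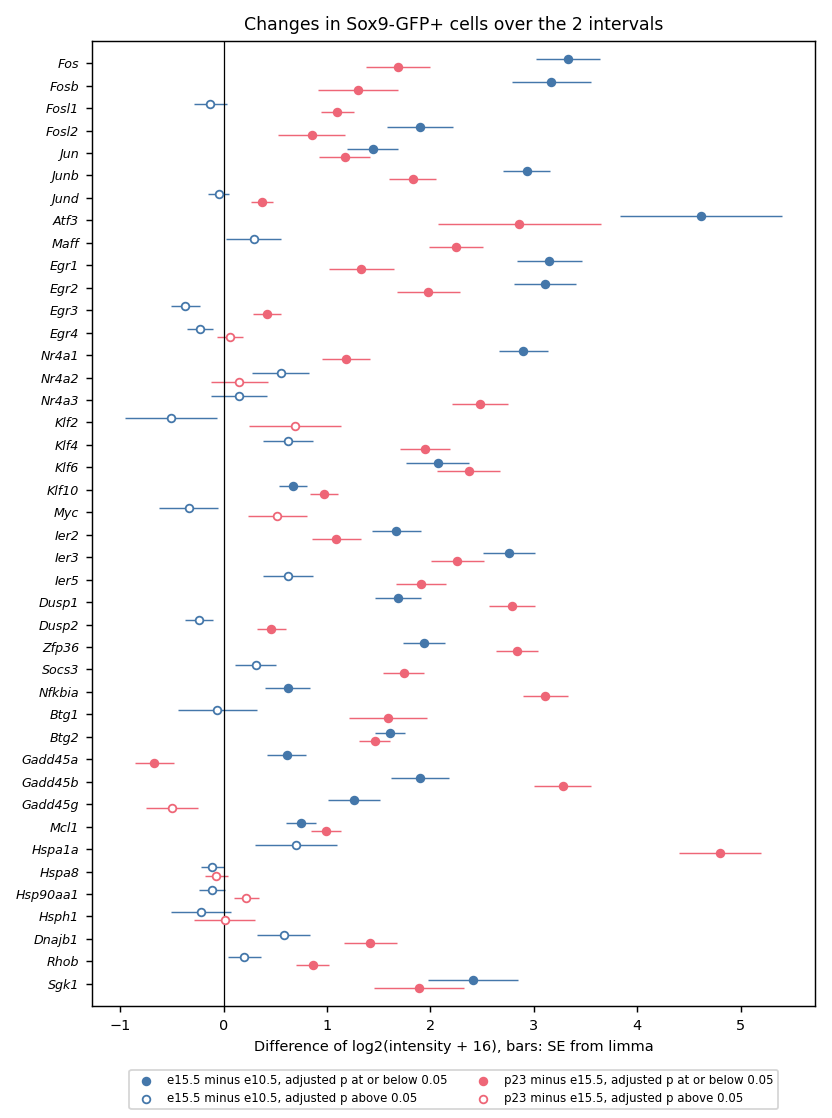
Horizontal position gives the difference of log2(intensity + 16) with its SE for each of the 42 genes over the e10.5 to e15.5 interval (blue) and the e15.5 to p23 interval (red), with filled points for adjusted p at or below 0.05. Atf3 lies farthest right among the first changes (4.62) and Hspa1a among the second (4.80), both against arrays below the filter, and Gadd45a is the 1 filled point left of 0.

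At e15.5 the set was lower in Ngn3-GFP+ than in Sox9-GFP+ cells, but not evenly: some genes stood near their e10.5 level while others stood close to their level in Sox9-GFP+ cells. Of 42 genes 14 were lower and 2 higher, with a median difference of -0.35, against 18.4% and 23.3% of all tested genes and a median of 0.04. With each array centred on its median, which moved the median over all genes to -0.14, the counts were 19 lower and 0 higher. This comparison and that of e15.5 with e10.5 use the same e15.5 Sox9-GFP+ arrays.

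Egr2 was below the filter in this sort. Its Ngn3-GFP+ arrays read 5.84, 5.35 and 5.5, against 9.77, 10.64 and 10.37, a difference of -4.70 ± 0.303 (adjusted p = 1.23e-06), that is, at least 10.8-fold lower. Nr4a1 stood at 6.97, 6.19 and 6.22 against 8.98, 9.85 and 9.79, a difference of -3.08 ± 0.233 (adjusted p = 5.13e-06). Its Ngn3-GFP+ values lay around or below the filter, so the size of that difference is uncertain. Ier2 stood at 8.72, 8.58 and 7.87 against 10.08, 10.63 and 10.78, a difference of -2.11 ± 0.239. All Ngn3-GFP+ arrays lay below all Sox9-GFP+ arrays for Egr2, Nr4a1 and Ier2. This was not particular to these genes, since it also held for others, such as Myc, Klf6, Junb, Ier3 and Mcl1. Myc stood at 7.94, 7.44 and 8.94 against 10.10, 9.65 and 9.79 (-1.74 ± 0.285, adjusted p = 0.00105), and Klf6 at 9.10, 7.65 and 8.5 against 9.73, 10.64 and 10.52 (-1.88 ± 0.305). Junb, Ier3 and Mcl1 were lower by smaller amounts, at -0.99 ± 0.228, -1.07 ± 0.255 and -0.56 ± 0.144.

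In several genes the size rested on Ngn3-GFP+ replicate 2. Atf3 stood at 9.13, 4.78 and 8.39 against 9.14, 10.65 and 10.63, and its difference of -2.71 ± 0.786 (adjusted p = 0.0163) was -1.38 without that array. Sgk1 stood at 6.94, 4.39 and 6.24, around or below the filter, against 7.63, 7.54 and 7.50, and its difference of -1.70 ± 0.438 became -0.96. Btg1 stood at 8.64, 7.07 and 9.19 against 9.59, 9.67 and 9.63, and its difference of -1.33 ± 0.378 became -0.72. All 3 were still called without that array, although the call of Atf3 was lost without e15.5 Sox9-GFP+ replicate 2 (-2.45, adjusted p = 0.0565) or replicate 3 (-2.46, adjusted p = 0.062). The calls of Egr1 (-1.08 ± 0.316), Gadd45b (-0.86 ± 0.277) and Jun (-0.67 ± 0.25) were each lost without any of several single arrays, at -0.84, -0.67 and -0.65 without Sox9-GFP+ replicate 3. The other 10 lower genes were called in all 15 fits that left out 1 array. Ngn3-GFP+ arrays correlated at 0.933 to 0.952 with each other, the lowest range of any group.

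Fos showed no call, at 10.62, 9.97 and 9.92 against 10.22, 11.15 and 10.99, a difference of -0.62 ± 0.309 (adjusted p = 0.12). The sorts overlapped because of Sox9-GFP+ replicate 1, and without that array the differences of Fos, Fosb, Zfp36 and Dusp1 were -0.90, -1.12, -0.62 and -0.62 and all 4 were called. All 5 feedback inhibitors were without a call in the full fit, with differences between -0.52 and 0.33, and so were the 5 heat shock chaperones. The higher genes were Jund (0.29 ± 0.104) and Egr3 (0.41 ± 0.136), whose calls were lost in several fits without 1 array, at 0.21 for Jund without Ngn3-GFP+ replicate 3 and 0.36 for Egr3 without Sox9-GFP+ replicate 1. Endocrine markers summed to 67602 to 76556 in Ngn3-GFP+ cells, and acinar markers, 9 of 12, to 14021 to 16527 against 19468 to 28337 in Sox9-GFP+ cells, and their part in these differences was not tested.

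**Figure D4:**
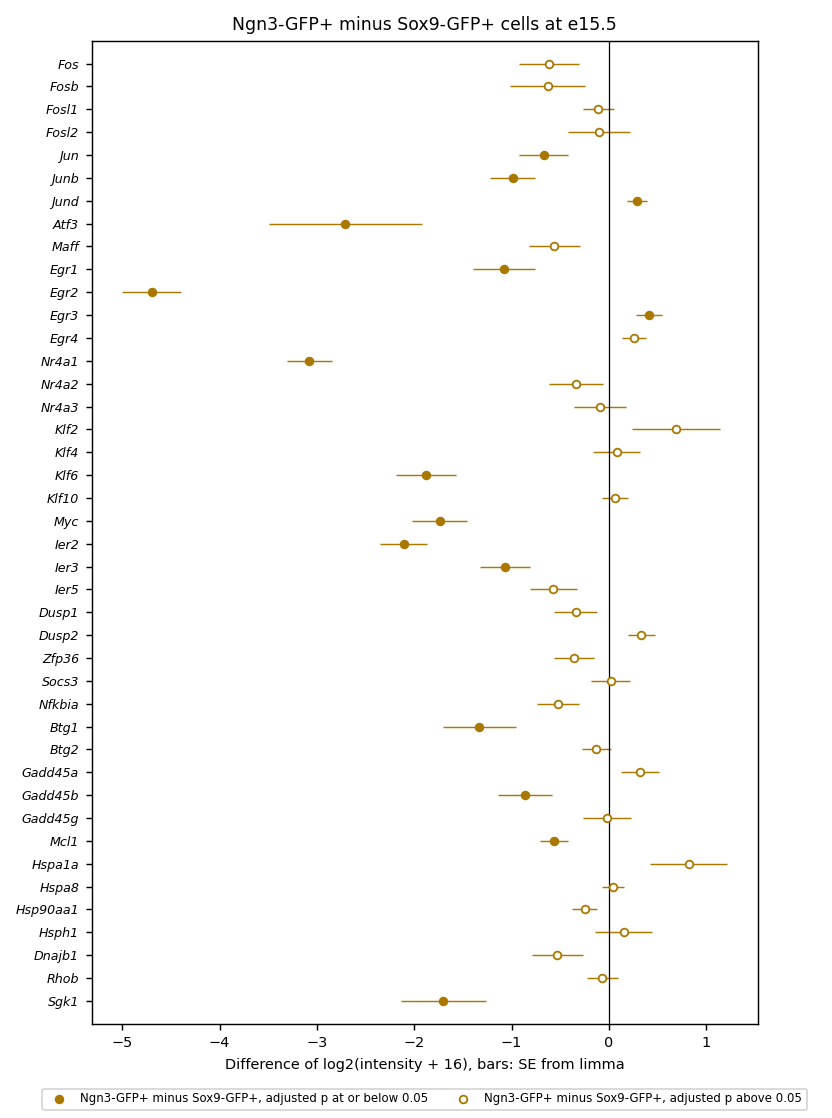
The difference of log2(intensity + 16) between Ngn3-GFP+ and Sox9-GFP+ cells at e15.5, with its SE, is drawn for each of the 42 genes, filled where the adjusted p is at or below 0.05. Egr2 (-4.70, with Ngn3-GFP+ arrays below the filter) and Nr4a1 (-3.08, with Ngn3-GFP+ arrays around or below it) lie farthest left, and no gene lies beyond 1 to the right.

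At p23 both sorts had high immediate early transcripts, and they differed in which genes stood highest. Of 42 genes 16 were higher and 5 lower in Sox9-GFP+ than in GFP- cells, with a median difference of 0.34, against 21.5% and 14.5% of all genes and a median of 0.07. Of the 16 higher genes 11 were called in every fit that left out 1 array, and 5 of 5 lower genes were. Set beside the e15.5 Sox9-GFP+ arrays, GFP- cells had 28 genes higher and 2 lower, against 27.0% and 32.8% of all genes. That comparison changes age and sort together and shares its e15.5 arrays with the one in Sox9-GFP+ cells.

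Fosb read 12.56, 12.49 and 12.31 in Sox9-GFP+ cells against 10.97, 11.01 and 10.40 in GFP- cells, a difference of 1.66 ± 0.383 (adjusted p = 0.00329). Maff stood at 11.77, 11.35 and 11.57 against 10.27, 10.20 and 9.44, a difference of 1.59 ± 0.263. Neither gene overlapped between the sorts. Klf10 stood at 11.12, 11.04 and 11.03 against 9.88, 9.79 and 9.46, a difference of 1.35 ± 0.136 (adjusted p = 2.1e-06). It was higher than at e15.5 in the GFP+ sort (0.97 ± 0.136) and lower in the GFP- sort (-0.38 ± 0.136, adjusted p = 0.0258), though the latter call was lost without GFP- replicate 3 (-0.26, adjusted p = 0.125). Ier3 (1.45 ± 0.255), Dusp1 (1.43 ± 0.222), Gadd45b (1.27 ± 0.277) and Nfkbia (1.22 ± 0.217) were higher in Sox9-GFP+ cells by similar amounts. Fos (0.91 ± 0.309, adjusted p = 0.0317), Junb (0.72 ± 0.228), Jun (0.90 ± 0.25), Zfp36 (0.74 ± 0.204) and Btg2 (0.42 ± 0.148) were also higher, and each lost its call without at least 1 array, at 0.79, 0.71, 0.69 and 0.34 for Fos, Junb, Jun and Btg2 without GFP- replicate 3 and at 0.59 for Zfp36 without Sox9-GFP+ replicate 1.

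The genes higher in GFP- cells were Gadd45g, Nr4a2, Myc, Nr4a3 and Dusp2. Gadd45g read 10.43, 9.94 and 9.18 in GFP- cells against 8.25, 8.13 and 7.84 in Sox9-GFP+ cells, a difference of -1.78 ± 0.248 (adjusted p = 5.04e-05). Nr4a2 stood at 10.60, 10.86 and 10.06 against 9.01, 8.71 and 8.49 (-1.77 ± 0.275). Nr4a3 stood at 10.81, 11.49 and 10.53 against 10.09, 9.26 and 9.15 (-1.45 ± 0.268), so that in GFP- cells it was 3.93 ± 0.268 above its e15.5 level, which lay around the filter. The NR4A genes therefore divided, since Nr4a1 overlapped between the sorts (10.84, 10.52 and 10.79 against 10.68, 11.04 and 10.81). Myc stood at 11.85, 11.98 and 11.90 against 10.74, 10.13 and 10.24 (-1.54 ± 0.285), and Dusp2, a MAP kinase phosphatase of activated lymphocytes, at 8.58, 8.42 and 8.45 against 7.33, 7.23 and 7.11 (-1.26 ± 0.139). Klf2 stood at 9.24, 11.26 and 11.68 in GFP- cells, with 1 array inside the range of the Sox9-GFP+ arrays, and its difference of -1.20 ± 0.448 was called (-1.94) without that array.

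Leukocyte signal moved with this comparison, and so did markers of other cells. Ptprc, which encodes the leukocyte antigen CD45, read 14.28, 14.41 and 14.64 in GFP- cells against 8.12, 10.64 and 10.09 in Sox9-GFP+ cells, while 0 of the 24 leukocyte markers in GFP- cells and 4 in Sox9-GFP+ cells had a group mean at or below the filter. Without the 2 Sox9-GFP+ arrays with Ptprc above 9, which leaves 1 array that is assumed to vary like the others, 11 genes were higher and 3 lower between the sorts, and 28 were higher and 0 lower than at e15.5. Nr4a3 and Myc were then at -0.85 and -1.18 and lost their calls. Of the higher genes Fos, Jun, Junb, Ier2, Btg2 and Mcl1 lost theirs, at 0.84, 0.86, 0.71, 0.74, 0.47 and 0.61. Klf4 gained a call, at 0.92. Ductal markers summed to 27768 to 31707 in Sox9-GFP+ cells and 8628 to 11220 in GFP- cells. Mesenchyme and stellate markers summed to 8736 to 9146 and 14024 to 15231 in the same order. Endothelial markers summed to 5045 to 5930 and 6557 to 7808, and acinar markers to 63045 to 72853 and 79448 to 84490. The part of leukocytes and of these other cells in the differences between the sorts was not tested.

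**Figure D5:**
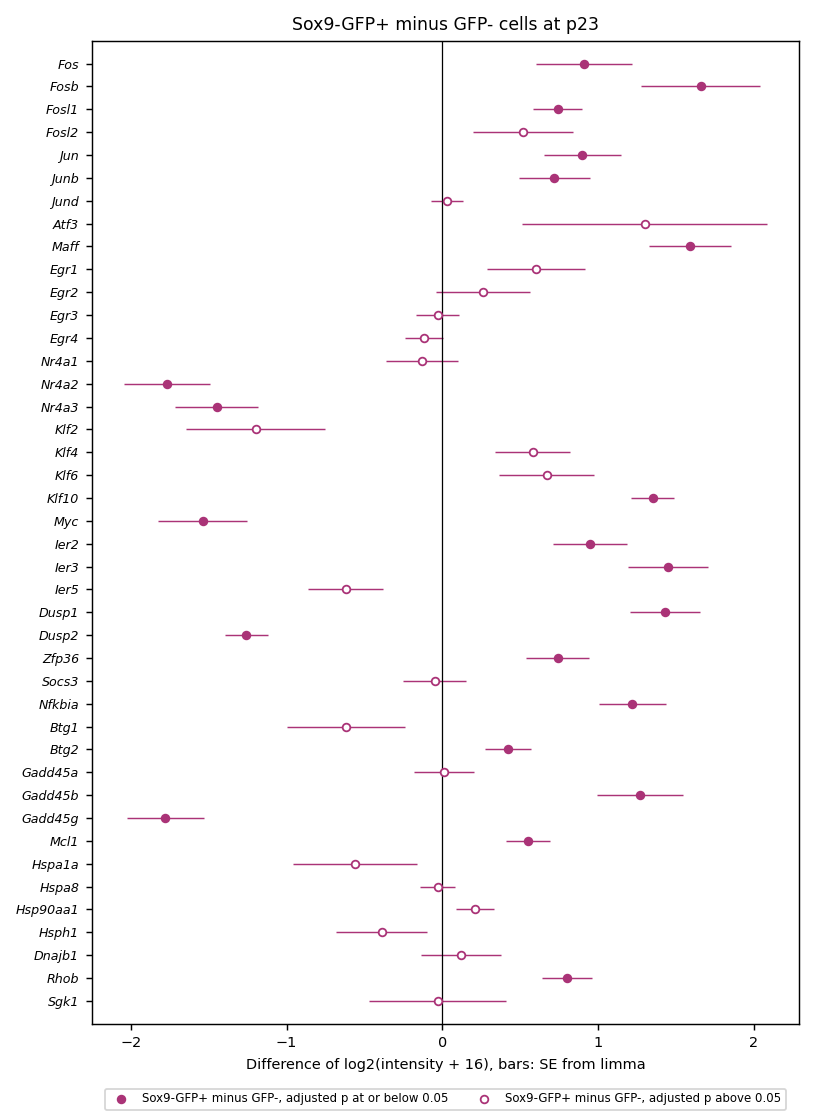
The difference of log2(intensity + 16) between Sox9-GFP+ and GFP- cells at p23, with its SE, is drawn for each of the 42 genes, filled where the adjusted p is at or below 0.05. Filled points to the right run from Btg2 (0.42) to Fosb (1.66), and those to the left from Dusp2 (-1.26) to Gadd45g (-1.78).

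No heat shock chaperone and no EGR gene was called between the p23 sorts. Hspa1a stood at 11.36, 11.78 and 10.90 in GFP- cells, overlapping the Sox9-GFP+ arrays, and Hspa8 at 12.97, 13.09 and 12.85. In GFP- cells Hspa1a was 5.35 ± 0.396 above its level in e15.5 Sox9-GFP+ cells (adjusted p = 4.93e-08), that is, at least 22.9-fold, beside at least 15.6-fold in Sox9-GFP+ cells. Egr2 stood at 11.87, 12.23 and 11.86, and Sgk1 at 9.88, 9.58 and 9.0, and both overlapped between the sorts.

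Other genes of the same pathways gave counts of their own, here and in the paragraphs that follow. Beside them stand the shares of all tested genes. At the first step 28.2% were called and 12.2% were called higher, and at the second 30.7% were higher and 26.8% lower. In Ngn3-GFP+ cells 23.3% were higher and 18.4% lower, and in Sox9-GFP+ cells at p23 21.5% were higher and 14.5% lower. No test set the count of a list apart from these shares. Of 37 further immediate early genes, 13 rose and 3 fell at the first step, 32 rose and 0 fell at the second, 4 were higher and 10 lower in Ngn3-GFP+ cells, and 13 were higher and 4 lower in Sox9-GFP+ than in GFP- cells at p23. Ccn1, a secreted matrix protein induced by serum, rose by 3.21 ± 0.276 at the first step and was lower in Ngn3-GFP+ cells (-2.11 ± 0.276). Bhlhe40, a transcriptional repressor, and Tnfaip3, an NF-kB feedback inhibitor, rose at the second step by 3.59 ± 0.221 and 3.56 ± 0.277. Rgs1, a regulator of G protein signalling in lymphocytes, was higher in GFP- cells (mean 12.81 against 7.38, Sox9-GFP+ minus GFP- -5.43 ± 0.199).

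Of 22 genes of the ERK, SRF and CREB pathway with a probe set, 5 rose and 0 fell at the first step and 5 rose and 4 fell at the second. Srf, the serum response factor itself, rose by 0.76 ± 0.163 at the first step and was 1.2 ± 0.163 higher at p23 than at e10.5. In Ngn3-GFP+ cells 2 were higher and 8 lower, among them Map2k6 (-1.12 ± 0.19), and between the p23 sorts 6 were higher and 3 lower in Sox9-GFP+ cells.

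Of 20 other heat shock genes 5 rose and 0 fell at the first step. At the second step 5 rose and 8 fell, with a median change of -0.11, against 30.7% and 26.8% of all genes. The list as a whole therefore did not rise at that step. The largest called changes there were rises, those of the small chaperones Cryab (3.27 ± 0.339) and Hspb1 (2.52 ± 0.331) and the co-chaperone Bag3 (2.15 ± 0.318). In Ngn3-GFP+ cells 0 were higher and 2 lower, and between the p23 sorts 5 were higher and 2 lower in Sox9-GFP+ cells.

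Of 18 genes of the integrated stress response 7 rose and 1 fell at the first step and 9 rose and 3 fell at the second, with Ddit3, which encodes CHOP, up by 1.41 ± 0.18. In Ngn3-GFP+ cells 2 were higher and 6 lower, and at p23 2 were higher and 9 lower in Sox9-GFP+ than in GFP- cells, such as Chac1 (-2.21 ± 0.554). Of 12 NRF2 target genes 6 rose and 0 fell at the first step and 3 rose and 2 fell at the second, with 1 higher and 5 lower in Ngn3-GFP+ cells and 6 higher and 2 lower in Sox9-GFP+ than in GFP- cells at p23. Of 10 p53 target genes 1 rose and 1 fell at the first step and 4 rose and 1 fell at the second, with 1 higher and 2 lower in Ngn3-GFP+ cells and 3 higher and 4 lower between the p23 sorts.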

How the data were processed

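Gene expression was measured on 15 Affymetrix mouse gene arrays. Each amplification started from 20 ng of RNA, with its poly(A) fraction copied, per the labels' protocols, and each array received 3.75 ug of the product. The deposited intensity of each probe set is on a linear scale. The submitters' processing notes name PLIER and Affymetrix Expression Console 1.1 as the authors' software. Whether arrays were scaled to each other at that stage was not given in the sources used here. Array medians of the deposited intensity lay between 165.5 and 211.7, no arrays were identical, and the number of arrays limits the precision.

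Of 35557 probe sets 21789 name 1 gene, and for each gene the one with the highest mean intensity was used, which gave 19938 genes. Genes above 97.8, the 30th percentile, in at least 3 arrays were kept. Values were taken to log2(intensity + 16). A single limma model held the 15 arrays with 1 coefficient for each group, and calls are at a Benjamini-Hochberg adjusted p of 0.05. Each SE and p-value therefore pools the spread within all 5 groups, including groups outside the comparison. A gene that scatters in 1 group has a wider SE in every comparison. The members and lists were chosen with earlier results of these data known. All 43 members could be named, and of other lists up to 3 called genes per comparison with the largest changes. The test was checked on simulated data. Alternatives were other offsets, normalizations, filters, probe set rules, variance models and thresholds, a replicate block, and arrays left out singly or for globin or leukocyte signal. Promoter sequences are from RefSeq (GRCm38.p6). Software was R 4.3.3, limma 3.58.1, Python 3.11.15, numpy 2.4.6, pandas 2.3.3 and matplotlib 3.10.9.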

Additional observations from a re-analysis of the deposited data

How the results depend on the processing

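Each result was recomputed under every alternative, and of 7302 values for single members 6957 kept their side of the threshold, 103 of them with a change of sign and no call either way, 229 lost and 115 gained a call and 1 reversed: Hsph1 at p23 against e15.5, 0.01 in the fit as reported and -0.50 with array weights. In 146 of 252 pairs of member and comparison no call was lost, gained or reversed under any alternative. Median centring moved the median over all genes from -0.05 to 0.11 for e15.5 against e10.5 and from 0.05 to -0.11 for p23 against e15.5. Intensities near background and 3 arrays per group limit what small changes can show. The cause of the differences below was not tested, except that treat sets a stricter threshold and that fits with fewer arrays have fewer degrees of freedom.

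Members called higher at p23 against e15.5 numbered 18 with treat against a 1.5-fold change (33 as reported). The 1 member called lower there became 2 with median centring, 2 in the fit of the 2 groups alone, 4 with array weights, and 0 with treat, without the arrays with globin signal and without those with leukocyte signal. Lower calls from e10.5 to e15.5 were 1 instead of 0 with the 2 groups alone and without the leukocyte arrays, and at p23 against e10.5 1 instead of 0 with array weights and without the leukocyte arrays. In Ngn3-GFP+ cells the 2 higher calls became 1 with quantile normalization, array weights or no leukocyte arrays, and 0 with median centring, treat or no globin arrays. The 14 lower calls became 9 with the 2 groups alone and 4 with treat. Between the p23 sorts the 16 higher calls became 5 with treat, and the 5 lower calls 9 with array weights and 3 without the leukocyte arrays. For p23 GFP- cells against e15.5 the 2 lower calls became 1 with quantile normalization and 0 with treat.

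With arrays left out 1 at a time, higher calls ranged from 20 to 24 (e15.5 against e10.5), 30 to 34 (p23 against e15.5), 30 to 33 (p23 against e10.5), 0 to 3 (Ngn3-GFP+ cells), 12 to 18 (p23 sorts) and 24 to 29 (p23 GFP- against e15.5). Lower calls ranged from 0 to 2, 1 to 2, 0 to 0, 10 to 17, 5 to 8 and 1 to 2 in the same order. Over all genes, the 4754 calls for e15.5 against e10.5 became 2724 with quantile normalization, 7149 with the 2 groups alone, 425 with treat and 2673 without the globin arrays, and 2179 and 1896 without e10.5 replicates 2 and 3 and 2168 and 1840 without e15.5 replicates 2 and 3. The 7034 calls in Ngn3-GFP+ cells became 4070 with quantile normalization, 178 with treat, and 4644 and 3757 without e15.5 Sox9-GFP+ replicates 2 and 3. At p23 against e10.5 6916 became 2199 with treat and 3559 without the globin arrays, a setting that leaves 1 e10.5 array, assumed to vary like the other groups. With treat, 9714 calls at p23 against e15.5 became 1615, 6077 between the p23 sorts 2050, and 10098 for GFP- cells against e15.5 3257.

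With the replicate number as a block, 2 members were lower at p23 against e15.5 instead of 1, and 1 was higher in Ngn3-GFP+ cells instead of 2. Deviations of arrays with the same number correlated at -0.49 to 0.20, above 0.1 in 3 of 30 pairs. With 3 arrays per group this cannot show whether the numbers pair the samples. Between the p23 sorts, both taken from Sox9-EGFP pancreata, the values were 0.11, -0.12 and -0.03. Whether these sorts shared pools was not given, and the main fit treated them as unpaired.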
